A study of Mus musculus with 13 samples.

Results

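The genes Arg1, Slc7a2, Nos2, Ass1, Il4i1, Kynu and Acod1 encode enzymes and a transporter of amino acid catabolism that myeloid cells switch on in inflammation. They were chosen by symbol, with earlier results of these data known. All 7 were found among the 22598 features of a single-cell RNA count matrix of 22148 spinal cord cells in 13 libraries. The cells were followed through experimental autoimmune encephalomyelitis (EAE), an induced autoimmune disease of the mouse central nervous system. All libraries came from Cx3cr1YFPCreERT2:R26tdTomato mice, a fate-mapping line in which the Cx3cr1 promoter drives an inducible Cre, so that long-lived resident cells can be told from newly arrived blood-derived cells by flow cytometry. The groups were chronic EAE sorted as infiltrating myeloid cells (3 libraries, 3524 cells), peak EAE sorted as infiltrating (2 libraries, 2381 cells), chronic EAE sorted as resident (3 libraries, 8771 cells), peak EAE sorted as resident (2 libraries, 1267 cells) and healthy controls sorted as resident (3 libraries, 6205 cells). Controls had no infiltrating library, and ages, sexes and the number of mice per library are not given in the sources used here. The labels call the libraries biological replicates, and p-values measure the spread between libraries.

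Arginine enters macrophages through cationic amino acid transporters and is then shared between competing enzymes. Arginase 1 (Arg1) splits it into ornithine and urea and feeds polyamine and proline synthesis, while inducible nitric oxide synthase (Nos2) turns it into nitric oxide and citrulline. In mouse macrophages Arg1 and Nos2 are the classic markers of opposed activation programmes. Slc7a2 is an inducible arginine transporter of these cells, and argininosuccinate synthase (Ass1) starts the return of citrulline to arginine. Il4i1 is a secreted oxidase of aromatic amino acids, kynureninase (Kynu) acts in tryptophan breakdown, and Acod1 makes itaconate from cis-aconitate in mitochondria, so that Acod1 is the member that does not act on an amino acid.

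In the GRCm38 annotation all 7 are protein-coding genes. Arg1 lies on the minus strand at chr10:24915207-24927470. The others lie on the plus strand: Slc7a2 at chr8:40862341-40922070, Nos2 at chr11:78920787-78960226, Ass1 at chr2:31470270-31520670, Il4i1 at chr7:44836288-44840809, Kynu at chr2:43555258-43683048 and Acod1 at chr14:103047012-103056573. Promoter windows were read from RefSeq (GRCm38.p6), in which 3 of the 7 members matched, and Arg1, Slc7a2, Nos2 and Kynu did not. The 250 bases before the start of Ass1 (chr2:31470020-31470269), Il4i1 (chr7:44836038-44836287) and Acod1 (chr14:103046762-103047011), all on the plus strand, are shown because these 3 members were called in microglia at both stages of EAE. Capitals mark matches to the motifs searched on both strands.
Ass1: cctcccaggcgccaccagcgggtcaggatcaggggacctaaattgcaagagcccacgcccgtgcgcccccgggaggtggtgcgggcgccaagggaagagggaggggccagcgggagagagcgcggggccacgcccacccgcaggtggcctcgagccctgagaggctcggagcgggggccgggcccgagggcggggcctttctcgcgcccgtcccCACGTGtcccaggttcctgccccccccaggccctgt
Il4i1: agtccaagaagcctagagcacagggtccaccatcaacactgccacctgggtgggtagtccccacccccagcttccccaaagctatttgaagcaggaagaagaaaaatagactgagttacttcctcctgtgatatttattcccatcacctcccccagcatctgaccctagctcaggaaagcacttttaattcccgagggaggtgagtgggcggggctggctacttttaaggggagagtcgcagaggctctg
Acod1: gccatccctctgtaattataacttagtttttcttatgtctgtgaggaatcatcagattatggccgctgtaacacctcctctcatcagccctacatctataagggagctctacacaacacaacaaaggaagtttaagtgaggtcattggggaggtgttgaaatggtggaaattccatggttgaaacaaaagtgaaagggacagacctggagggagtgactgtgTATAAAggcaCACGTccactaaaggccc
The Ass1 window held ACGTG, the core letters of hypoxia response elements, on both strands as an overlapping CACGTG at -36 to -31 from the start. The Acod1 window held a TATA box (TATAAA) at -28 to -23 and ACGTG on the minus strand at -18 to -14. Of 32851 promoter windows of the same length, 16.6% held ACGTG and 12.4% held TATAAA on either strand. The Il4i1 window held neither. No window of the 3 held the NF-kB site in its strict form (in 0.140% of all windows) or in a looser form that contains it (1.41%). The same was true of TTCNNNGAA (7.02%) and of its form with a longer spacer (5.85%), the STAT-type palindromes, of the interferon response type (2.98%), and of TTGCNNAA (9.56%), the C/EBP type.

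Depth was uneven between groups. Library totals ran from 4111257 to 22450385 UMIs, and library medians from 2558 to 11145.5 UMIs per cell, with the peak libraries the deepest. The deposited annotation held 17670 microglia, 1925 macrophages, 1572 monocytes and 355 dendritic cells. Summed monocyte markers (8 genes) reached 2777 to 13158 CPM (UMI counts scaled to 1 common total per library and class), in monocytes of the infiltrating gate and 2.34 to 39.2 CPM in microglia of the resident gate. Summed microglial markers (7 genes) reached 6957 to 25196 CPM in those microglia and 327 to 1127 CPM in the monocytes. The 8 dendritic markers summed to 794 to 1303 CPM in dendritic cells and 14.5 to 87.6 CPM in macrophages and monocytes of the infiltrating gate. The macrophage list (7 genes) did not separate macrophages of the infiltrating gate (14725 to 87483 CPM) from microglia of the resident gate (14464 to 55968 CPM). The deposited cell table gives each cell a batch code headed SLX, read here as its sequencing pool, which the header itself does not say. Across libraries 55 cell barcodes occurred more than once, 8 of them within 1 such pool. Of the 4 pools, none held both a chronic and a peak infiltrating library, so for these libraries stage and pool cannot be told apart.

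Microglia of the resident gate changed in 3 of the 6 tested members at peak and in 4 of 6 in chronic EAE, each against controls. Of all 11154 genes, 29.3% and 28.1% were called in the same comparisons. Acod1 and Ass1 were higher at both stages than in controls. Il4i1, the aromatic amino acid oxidase, was lower at peak and higher in chronic EAE, a change of direction between the stages. Slc7a2 was higher in chronic EAE, from very few UMIs.

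Acod1 was close to absent from control microglia, at 0.294, 0 and 0 CPM (2 UMIs in all), and stood at 92.5 and 39.6 CPM at peak and at 16.7, 41.6 and 5.62 CPM in chronic EAE. Every EAE library lay above every control library. With only 2 control UMIs the ratio of summed CPM was 684 at peak (95% counting interval 189 to 5660) and 175 in chronic EAE (48.1 to 1447). Both differences passed the quasi-likelihood F test of edgeR, adjusted by Benjamini-Hochberg over all genes fitted (adjusted p = 7.86e-06 at peak and 4.72e-05 in chronic EAE). The share of microglia with an Acod1 UMI was 0.113%, 0% and 0% in controls, 29.8% and 17.5% at peak and 3.61%, 7.04% and 1.54% in chronic EAE. After every cell was thinned to 2000 UMIs it was 11.9% and 6.48% at peak and 2.21%, 5.10% and 0.723% in chronic EAE. T cells of the chronic libraries, which should lack the gene, had it in 0%, 1.44% and 2.78% of 53, 139 and 36 cells at medians of 3222, 2926 and 3565 UMIs, against microglial medians of 2856, 2465.5 and 3544 UMIs. In chronic library c the microglial share lay below that of its T cells, which rests on 1 positive T cell, so detection above that background was not shown there. The Acod1 UMIs of that library were unevenly spread over the deposited clusters, with 71 in the 1186 microglia of cluster 4 and 9 in the 2673 of cluster 1. Without chronic library c the chronic call held (edgeR adjusted p = 4.99e-09). The peak libraries had 6 and 10 T cells with no Acod1 UMI, and peak microglia had medians of 8446.5 and 8521 UMIs.

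Summed monocyte markers in the same microglia stood at 2.81 to 7.20 CPM in controls, 14.1 to 39.2 CPM at peak and 2.34 to 7.55 CPM in chronic EAE. Their part in the peak Acod1 level was not tested. Acod1 stood at 92.5 and 39.6 CPM in peak microglia, against 255 and 396 CPM in macrophages of the peak infiltrating gate. Arg1, abundant in those macrophages, stood at 0.953 and 0.632 CPM in peak microglia, against 1934 and 860 CPM. Chronic against peak microglia, Acod1 overlapped and differed by -1.50 ± 0.56 on the log2 scale (edgeR adjusted p = 0.065). Without chronic resident library b the difference was -2.43 (adjusted p = 0.0052), and without peak resident library a it was -0.85 (adjusted p = 0.504).

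Ass1, which recycles citrulline, stood at 4.86, 1.66 and 1.65 CPM in control microglia, 41.0 and 36.3 CPM at peak and 102, 116 and 52.2 CPM in chronic EAE. The stages did not overlap. It was higher by 4.17 ± 0.44 on the log2 scale at peak (SE, 2 against 3 libraries, edgeR adjusted p = 7.99e-06) and by 5.50 ± 0.42 in chronic EAE (3 against 3 libraries, edgeR adjusted p = 5.28e-07) than in controls. The share of microglia with an Ass1 UMI was 1.36%, 0.609% and 0.371% in controls, 24.3% and 19.5% at peak and 17.9%, 17.6% and 10.7% in chronic EAE. At 2000 UMIs per cell these shares were 0.746%, 0.281% and 0.209%, then 7.60% and 6.74%, then 12.4%, 14.2% and 5.69%. At equal depth chronic libraries a and b lay above both peak libraries and c below them, whereas unthinned all 3 lay below both. T cells are no blank for this gene: those of the chronic resident libraries held 316, 199 and 183 CPM.

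Chronic against peak microglia, Ass1 was higher by 1.33 ± 0.38 (log2, edgeR adjusted p = 0.0244), a call that was lost when any of 4 single libraries was left out. Without chronic resident library a or b the adjusted p was 0.0503 or 0.0783, and without peak resident library a or b it was 0.157 or 0.0945, fits in which the 1 remaining peak library is assumed to vary like the other groups. With the sequencing pool as a term the difference was 0.50 (adjusted p = 0.945). Within microglia of deposited cluster 4 it was 1.00 (adjusted p = 0.0778).

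Il4i1 stood at 20.2, 17.7 and 16.4 CPM in control microglia, 3.81 and 2.68 CPM at peak and 55.2, 41.9 and 32.9 CPM in chronic EAE. The 3 stages were fully separated. It fell by 2.16 ± 0.34 on the log2 scale at peak against controls (edgeR adjusted p = 0.000279), and was higher in chronic EAE by 1.70 ± 0.24 against controls (adjusted p = 0.000131) and by 3.85 ± 0.34 against peak (adjusted p = 3.31e-05). The share of positive microglia at 2000 UMIs per cell was 3.32%, 3.32% and 2.24% in controls, 0.825% and 0.487% at peak and 7.19%, 4.94% and 3.87% in chronic EAE. Unthinned shares were 5.82%, 7.22% and 3.37%, then 3.09% and 1.99%, then 8.85%, 6.50% and 7.24%. T cells of the chronic resident libraries held 0, 1 and 0 Il4i1 UMIs. Summed dendritic markers in these microglia ranged from 16.3 to 18.7 CPM in controls, 34.6 to 39.8 CPM at peak and 10.8 to 22.8 CPM in chronic EAE. The 8 markers of mature migratory dendritic cells, of which up to 4 were at 0 in a library, summed to 185 to 436 CPM in controls, 569 to 658 CPM at peak and 256 to 1235 CPM in chronic EAE. This list is not specific to dendritic cells. In the chronic infiltrating gate it summed to 8986 to 12247 CPM in T cells and 1188 to 4629 CPM in dendritic cells. The part of either class in the Il4i1 levels was not tested.

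Slc7a2 had 8 UMIs in control microglia (0.294, 0.554 and 0.290 CPM), 4 UMIs at peak (0 and 0.632 CPM) and 40 UMIs in chronic EAE (1.92, 1.85 and 0.835 CPM). The chronic libraries lay above the controls by 2.37 ± 0.67 (log2, edgeR adjusted p = 0.0164). This call was lost without chronic resident library a (adjusted p = 0.0611) or b (0.0581), without control library a (0.0516) or c (0.0672), and with the pool as a term (1.84, adjusted p = 0.405). Against peak the difference was 1.98 ± 0.84 (edgeR adjusted p = 0.0987), and 2.45 (0.0256) without chronic resident library c. Kynu stayed between 1.90 and 2.95 CPM in all 8 resident libraries and passed no test. Arg1 had 3 UMIs in controls, 8 at peak and 27 in chronic EAE, and 25 of the chronic UMIs came from library a at 3.70 CPM. Its chronic libraries overlapped the controls (edgeR adjusted p = 0.0816, DESeq2 adjusted p = 0.0308), and without chronic resident library c edgeR called it (adjusted p = 0.00255). Nos2, with 1 UMI in controls, 21 at peak (0.953 and 2.68 CPM) and 1 in chronic EAE, did not pass the filter on low counts. Its ratio of summed CPM at peak against controls was 45.0, with a counting interval of 7.23 to 1859.

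**Figure D1:**
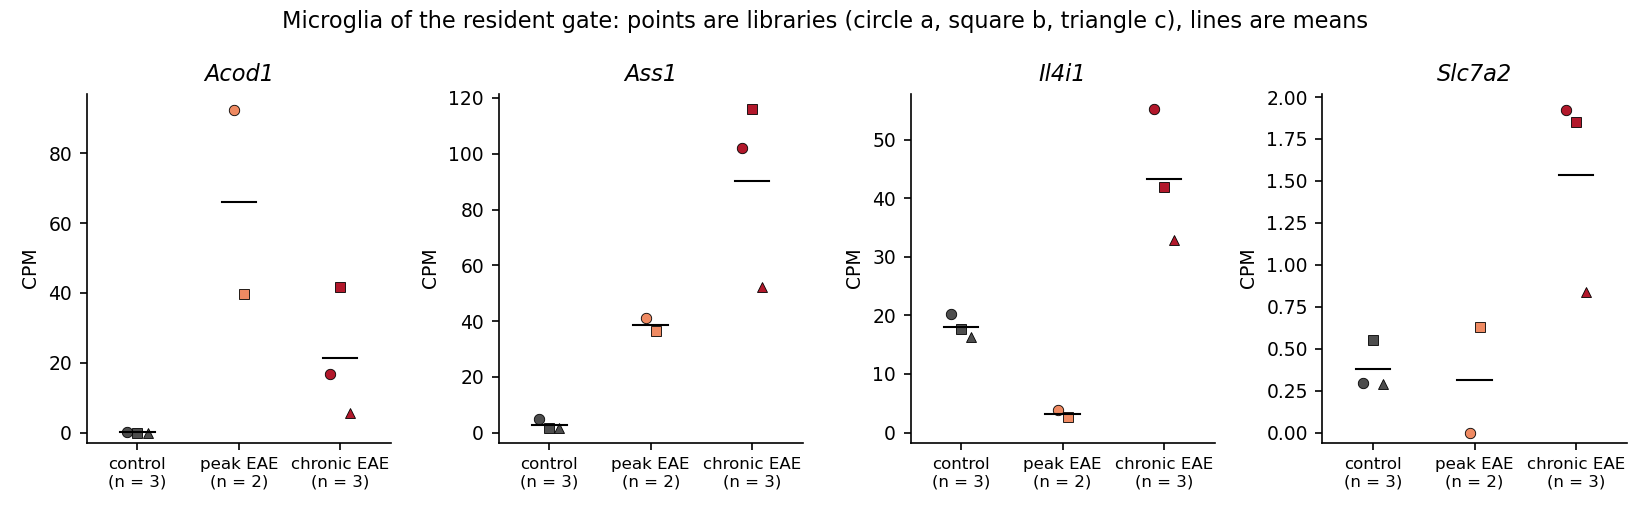
CPM of Acod1, Ass1, Il4i1 and Slc7a2 (y axes, linear, each on its own scale) in microglia of the resident gate by stage; each point is 1 library and each line the mean of its group. Il4i1 separates the 3 stages, with peak (2.68 and 3.81 CPM) below controls (16.4 to 20.2 CPM) and chronic EAE (32.9 to 55.2 CPM) above them.

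In counts, 2 of the 6 members tested were higher and 1 lower at peak than in controls, against 29.3% of all 11154 genes called in either direction (16.2% higher, 13.1% lower). In chronic EAE 4 of 6 were higher and 0 lower than in controls, against 28.1% of all genes (14.7% higher). Against peak, 2 of 6 were higher in chronic EAE, against 21.6% of all genes (8.98% higher). These percentages are the background for the members' counts. The members were chosen with earlier results of these data known, so neither their counts nor their medians test them as a set. The median log2 difference of the 6 members was 1.53, 2.84 and 0.98 in these comparisons, against 0.01, -0.08 and -0.04 over all genes. With genes resting on at most 3 UMIs in a group held at their counting bound, the members' medians were 0.42, 2.03 and 0.98. In each comparison 4 of the 6 members had groups that did not overlap, as did 60.2%, 61.8% and 48.6% of all genes. Scaling by library size alone moved the median of all genes to -0.33, -0.50 and -0.12 and the calls to 1086 higher and 2602 lower, 917 and 4304, and 768 and 1270, against 1807 and 1457, 1642 and 1488, and 1002 and 1408 with trimmed means. The calls of Acod1, Ass1, Il4i1 and Slc7a2 named above held under it.

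The order of these members against controls was the same within pools C and B, the pools that held both EAE and control libraries of the resident gate. Pool D, with chronic libraries a and b, held no control, so chronic EAE was checked in library c alone. In pool C, peak libraries against control library b had Acod1 at 92.5 and 39.6 against 0 CPM, Ass1 at 41.0 and 36.3 against 1.66 CPM, and Il4i1 at 3.81 and 2.68 against 17.7 CPM. In pool B, chronic library c against control library c had Ass1 at 52.2 against 1.65 CPM, Il4i1 at 32.9 against 16.4 CPM and Slc7a2 at 0.835 against 0.290 CPM. Acod1 stood there at 5.62 against 0 CPM, in the library where detection above the T cells was not shown. No pool held both chronic and peak resident libraries.

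The deposited clusters of microglia differed in these genes. These values describe clusters made from the same cells and carry no test. Cluster 4 held 78.8% of the microglial Ass1 UMIs (136 CPM, 29.4% of its cells positive) and 69.4% of the Il4i1 UMIs (66.5 CPM, 13.1%). Acod1 was spread over cluster 4 (49.0% of UMIs, 32.8 CPM) and cluster 3 (42.6%, 39.6 CPM), and had no UMI in the 5704 cells of cluster 9. Cluster 9 made up 90.4%, 87.8% and 94.6% of control microglia. At peak, cluster 3 made up 68.9% and 56.4% and cluster 4 22.6% and 35.1%. In chronic EAE cluster 4 made up 55.1%, 46.3% and 27.6%. Cluster 10, of 89 cells, had Il4i1 at 111 CPM.

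Within cluster 4 alone Il4i1 also differed by stage. It stood at 89.9, 80.9 and 239 CPM in the 14, 15 and 40 control cells of that cluster, at 6.69 and 5.55 CPM in its 110 and 247 peak cells, and at 85.1, 63.0 and 68.2 CPM in its chronic cells. Chronic against peak within cluster 4, the difference was 3.44 on the log2 scale (edgeR adjusted p = 8.08e-05, an alternative chosen after seeing the data). The few control cells of this cluster thus had Il4i1 in the range of the chronic cells or above it.

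Microglia that fell into the chronic infiltrating gate (libraries b and c, 1915 and 74 cells) were set against those of the chronic resident gate. Ass1 stood at 96.3 and 93.6 CPM against 102, 116 and 52.2 CPM, and Il4i1 at 40.6 and 59.6 CPM against 55.2, 41.9 and 32.9 CPM. edgeR called 0 of 6 members and 0 of 11154 genes (0%), with 74 genes at an unadjusted p under 0.05 and 0 genes called by DESeq2. Slc7a2, at 3.33 and 4.25 CPM against 1.92, 1.85 and 0.835 CPM, was the 1 member of 6 whose gates did not overlap, against 11.7% of all genes.

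In every peak library, macrophages and monocytes of the infiltrating gate held Arg1, Slc7a2, Nos2, Ass1 and Acod1 at higher CPM than microglia of the peak resident gate. No member passed the test between chronic and peak EAE in either class. Nos2 and Kynu were the members whose libraries did not overlap between stages, both lower in chronic EAE. Of all genes, 23% in macrophages and 23.1% in monocytes did not overlap either. The other members overlapped between the stages. Monocytes fell into deposited clusters 6 and 8. Cluster 8 made up 13.4%, 29.9% and 50% of chronic monocytes, and 2.05% and 2.82% of peak ones. In chronic cluster 8 Arg1 stood at 18.2, 14.1 and 0 CPM and Ass1 at 109, 70.4 and 51.3 CPM. In chronic cluster 6 they stood at 847, 84.1 and 0 CPM and at 931, 613 and 317 CPM. The part of this mix in the monocyte differences was not tested. In controls the 17 annotated macrophages held 75413 UMIs and 0 UMIs of any member, where 3 UMIs would be 39.8 CPM.

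Among the genes that bring arginine in and split it, Arg1 stood at 1776, 98.0 and 9.69 CPM in macrophages of the chronic infiltrating gate, and at 1934 and 860 CPM at peak. In monocytes it stood at 779, 75.4 and 0 CPM in chronic EAE, and at 855 and 703 CPM at peak. Chronic library a thus lay within the peak range in both classes, while chronic libraries b and c lay far below it. The macrophage difference was -1.08 ± 1.65 on the log2 scale (edgeR adjusted p = 0.867), and without chronic library a it was -4.56 (adjusted p = 0.263). The monocyte difference was -1.39 ± 1.14 (edgeR adjusted p = 0.786), and without chronic library a it was -4.34 (adjusted p = 0.0154). Monocyte markers moved with this order: in macrophages they summed to 3261, 2127 and 158 CPM in chronic libraries a, b and c, and to 7659 and 3429 CPM at peak. Macrophage markers summed to 14725, 31309 and 87483 CPM there, and to 21124 and 50863 CPM at peak. Their part in the Arg1 differences was not tested.

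The positive macrophages of chronic libraries a and b held a median of 19 and 2 UMIs each, and those of peak libraries a and b a median of 16 and 7. Single macrophages reached 209 and 56 Arg1 UMIs in the chronic libraries, and 217 and 112 at peak. The top 10% of macrophages held 48.8% and 92.1% of all Arg1 UMIs in chronic libraries a and b, and 43.0% and 59.0% in peak libraries a and b. The positive macrophages held a median of 1 to 3 Slc7a2 UMIs each over the 5 libraries, single cells reached 8 to 23, and the top 10% of macrophages held 46.9% to 77.2% of them.

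The transporter Slc7a2 stood at 91.0, 101 and 36.8 CPM in chronic macrophages, and at 74.5 and 194 CPM at peak. In monocytes it stood at 48.1, 57.8 and 44.8 CPM in chronic EAE, and at 34.9 and 143 CPM at peak. The stages overlapped in both classes.

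Nos2 stood at 10.5, 2.48 and 0 CPM in chronic macrophages, and at 64.1 and 68.1 CPM at peak. In monocytes it stood at 4.44, 0 and 2.80 CPM in chronic EAE, and at 25.0 and 45.7 CPM at peak. Every chronic library lay below both peak libraries in each class. The macrophage difference was -3.58 ± 0.76 on the log2 scale (edgeR adjusted p = 0.184) and the monocyte difference -3.49 ± 0.61 (adjusted p = 0.0656), so neither passed. DESeq2 called it in monocytes (-3.51, adjusted p = 0.0025) and not in macrophages. Without chronic infiltrating library a edgeR called it in both, at -5.25 (adjusted p = 0.00995) in macrophages and -4.36 (0.0103) in monocytes.

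Ass1 overlapped between the stages, at 654, 426 and 125 CPM in chronic macrophages and 608 and 239 CPM at peak, and at 864, 545 and 223 CPM in chronic monocytes and 792 and 459 CPM at peak. Its detection was wide, in 31.7% to 85.7% of chronic macrophages and in 85.1% and 71.7% of peak macrophages. Infiltrating T cells also carried it, in 29.2%, 45.3% and 32.7% of cells in chronic EAE and in 63.8% and 31.9% at peak.

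Acod1 stood at 282, 138 and 65.2 CPM in chronic macrophages, and at 255 and 396 CPM at peak. In monocytes it stood at 175, 40.3 and 47.6 CPM in chronic EAE, and at 146 and 328 CPM at peak. The monocyte difference was -1.30 ± 0.54 on the log2 scale (edgeR adjusted p = 0.514), and -2.30 (adjusted p = 0.0125) without chronic library a. As with Arg1, that library lay within the peak range and the others below it.

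Kynu, of the tryptophan branch, stood at 4.74, 9.90 and 4.52 CPM in chronic macrophages, and at 20.2 and 12.7 CPM at peak. In monocytes it stood at 8.15, 8.76 and 12.6 CPM in chronic EAE, and at 23.4 and 18.1 CPM at peak. The stages did not overlap, and the differences of -1.25 ± 0.47 in macrophages (edgeR adjusted p = 0.431) and -1.05 ± 0.45 in monocytes (adjusted p = 0.538) did not pass. Il4i1 was sparse in both classes, at 0.236 to 12.4 CPM in macrophages over the 5 libraries and 0 to 7.00 CPM in monocytes, where it did not pass the filter.

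**Figure D2:**
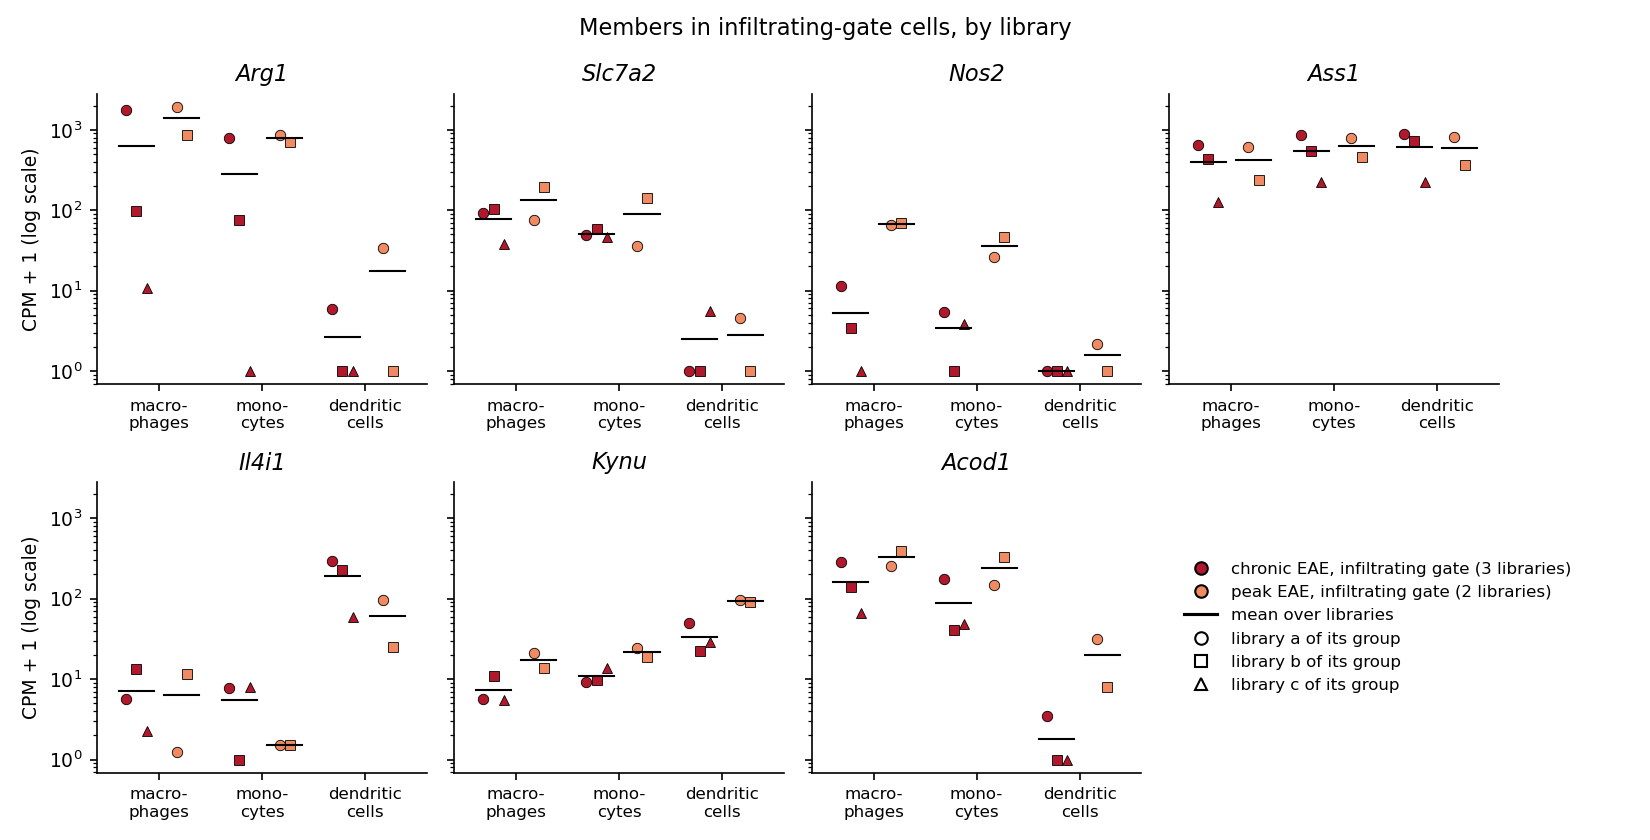
CPM plus 1 (y axis, log scale) of the 7 members in macrophages, monocytes and dendritic cells of the infiltrating gate, chronic EAE left of peak EAE; each point is 1 library and each line the mean of its group. Arg1 spreads from 9.69 to 1776 CPM among the chronic macrophage libraries, Nos2 separates the stages in macrophages and monocytes, and Il4i1 and Kynu are highest in dendritic cells.

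Over all genes the same comparison made few calls. In macrophages edgeR called 0 of 7 members, against 0.0115% of 8703 genes, with 844 genes at an unadjusted p under 0.05 and 51 genes and 0 members called by DESeq2. In monocytes it called 0 of 6 members, against 0.101% of 7920 genes (0.0758% higher, 0.0253% lower), with 691 genes at an unadjusted p under 0.05 and 56 genes called by DESeq2, Nos2 among them. Groups did not overlap for 2 of 7 members in macrophages, against 23% of all genes, and for 2 of 6 in monocytes, against 23.1%. The members' median was -0.86 in macrophages and -1.18 in monocytes, against -0.00 and -0.02 over all genes. The change from peak to chronic was not shown to differ between the classes for any member: the test of that difference called 0 of 7 members and 0 of 9283 genes (0%), with 355 genes at an unadjusted p under 0.05 and 2 called by DESeq2.

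Shares of cells were compared at 2000 UMIs per cell because peak cells were deeper. Macrophages had medians of 10103, 10191 and 6552 UMIs in chronic EAE and 11945 and 12285.5 UMIs at peak. Arg1 was then found in 55.6%, 8.39% and 1.28% of chronic macrophages and in 67.4% and 40.2% of peak macrophages, where the unthinned shares were 65.1%, 17.7% and 3.02%, and 83.2% and 61.1%. Nos2 was found in 1.80%, 0.478% and 0% of chronic macrophages and in 9.92% and 8.10% of peak macrophages at 2000 UMIs, with unthinned shares of 5.71%, 1.51% and 0%, and of 27.4% and 20.6%. The Nos2 share differed by -8.25 points in macrophages and by -4.75 points in monocytes between chronic and peak EAE, each with an exact two-sided permutation p of 0.1, the smallest that 3 against 2 libraries can give. For Arg1 the differences were -32.0 points in macrophages (exact permutation p = 0.3) and -25.5 points in monocytes (p = 0.2).

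In monocytes the Arg1 shares at 2000 UMIs were 33.4%, 8.87% and 0% in chronic EAE and 44.0% and 35.1% at peak, with unthinned shares of 44.6%, 15.6% and 0%, and of 66.5% and 50.3%. The Nos2 shares were 0.663%, 0% and 0.476% in chronic EAE and 4.02% and 6.24% at peak, with unthinned shares of 3.18%, 0% and 1.16%, and of 13.9% and 16.4%. Monocyte medians were 7553, 6100 and 6435.5 UMIs in chronic EAE, and 11147 and 10611 UMIs at peak. T cells served as the class that should lack both genes. Their unthinned Arg1 shares were 8.33%, 0% and 0% in chronic EAE and 24.1% and 6.38% at peak, and their Nos2 shares 0%, 0% and 0%, and 1.42% and 0%. Their medians were 3013.5, 2860.5 and 3744.5 UMIs in chronic EAE and 7258 and 7022 UMIs at peak. At 2000 UMIs T cells had Arg1 in 4.87%, 0% and 0% in chronic EAE and in 7.19% and 1.85% at peak, below the macrophages of the same library in each case. In chronic library c this rests on 6 positive macrophages of 199 and on only 52 T cells. Detection above that background was not shown there.

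**Figure D3:**
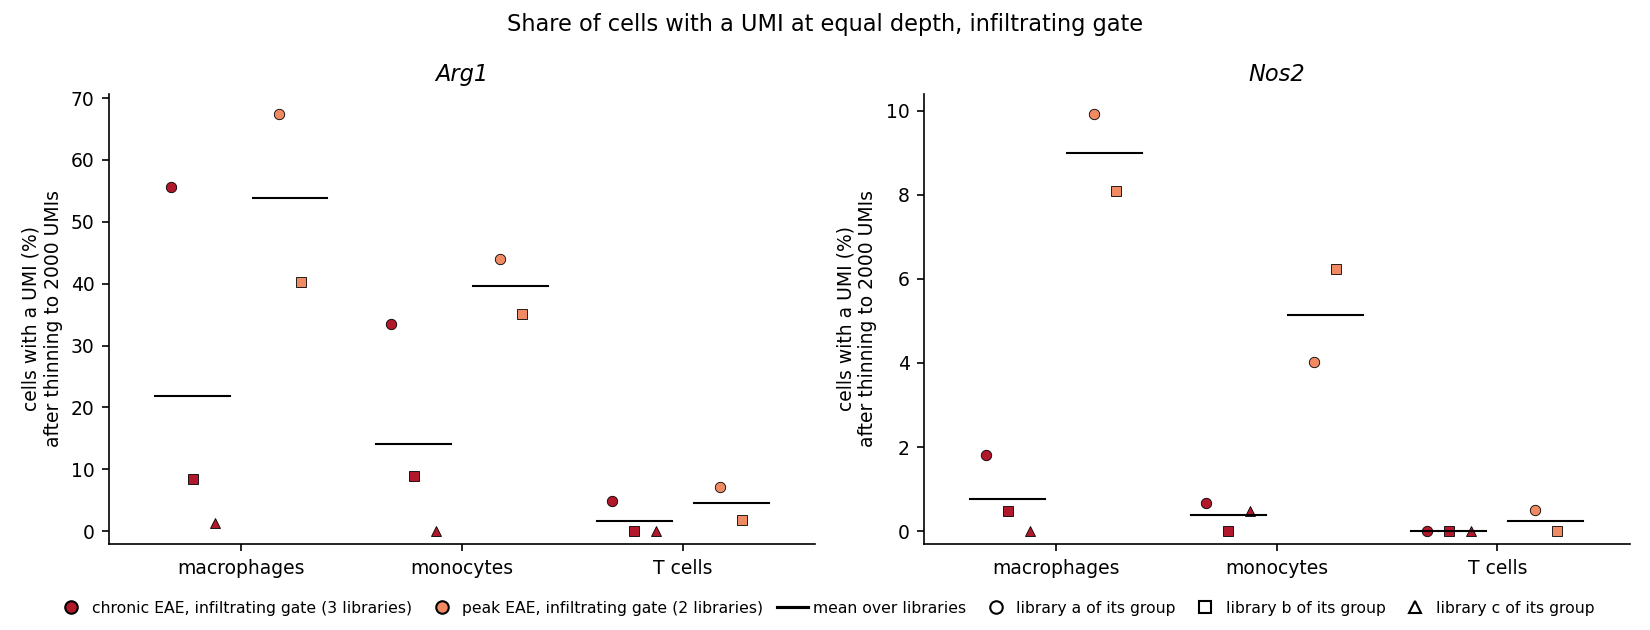
Percentage of cells with a UMI of Arg1 (left) and Nos2 (right) after thinning each cell to 2000 UMIs (y axes, each on its own scale), chronic EAE left of peak EAE, with T cells as the class that should lack both genes; each point is 1 infiltrating library and each line the mean of its group. Peak macrophages hold Nos2 in 8.10% and 9.92% of cells, and the chronic libraries in at most 1.80%.

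Arg1 and Nos2 were found together in single cells, in peak macrophages at about the number that independent detection would give. Among 686 and 180 peak macrophages, 171 and 25 held at least 1 UMI of both (24.9%, exact 95% interval 21.7 to 28.3, and 13.9%, 9.19 to 19.8), where 156 and 22.6 cells were expected from the product of the shares. The ratio was 1.09 and 1.11, and 1.07 and 0.998 when expected within quartiles of total UMIs. Most macrophages with Nos2 also held Arg1: 91.0% and 67.6% of them, against 83.2% and 61.1% of all macrophages, which left 17 and 12 cells with Nos2 alone, beside 400 and 85 with Arg1 alone. Some Arg1 UMIs may be free RNA: 24.1% and 6.38% of the shallower T cells of peak libraries a and b held one. Its part in the numbers of macrophages and monocytes with both genes was not tested. With at least 2 UMIs of each gene, 84 and 14 macrophages held both, where 75.4 and 10.2 were expected.

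Among 1023 and 177 peak monocytes 108 and 21 cells held both (10.6% and 11.9%). The ratio to expectation was 1.14 and 1.44, and 1.13 and 1.36 within quartiles of total UMIs. Here 34 and 8 cells held Nos2 alone. In chronic library a 16 macrophages of 350 held both genes (1.23 times the expected number), as did 4 monocytes of 157, where 2.23 were expected. No macrophage or monocyte of chronic libraries b and c held both. In peak library b macrophages with Arg1 had Nos2 at 54.9 CPM and those without Arg1 at 98.3 CPM, while in peak library a those with Arg1 had it at 65.0 CPM and those without at 58.2 CPM. The intervals cover counting error only, and no p is given because cells of a library are not replicates.

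The other pairs among Arg1, Slc7a2, Nos2 and Acod1 were set against independence in the same way. Within quartiles of total UMIs, Slc7a2 and Nos2 occurred together 1.45 and 1.50 times as often as under independence in peak macrophages and 1.93 and 1.28 times in peak monocytes. Nos2 and Acod1 did so 1.33 and 1.20 times in macrophages and 1.40 and 1.42 times in monocytes. Arg1 and Slc7a2 did so 1.09 and 1.15 times in macrophages and 1.28 and 1.28 times in monocytes. Slc7a2 and Acod1 did so 1.12 and 1.05 times in macrophages and 1.20 and 1.11 times in monocytes. Arg1 and Acod1 lay close to 1, at 0.982 and 1.05 in macrophages and 0.996 and 0.987 in monocytes.

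**Figure D4:**
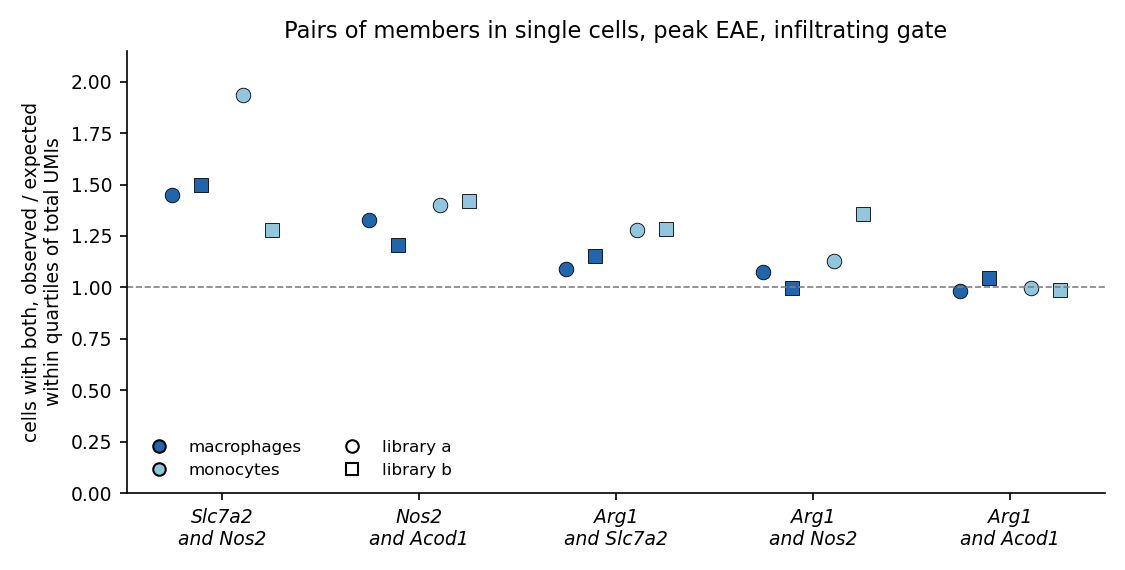
Number of cells holding both genes of a pair over the number expected within quartiles of total UMIs (y axis) in peak EAE macrophages and monocytes of the infiltrating gate; each point is 1 library and the dashed line is 1. Slc7a2 with Nos2 lies between 1.28 and 1.93, and Arg1 with Acod1 between 0.982 and 1.05.

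Dendritic cells had another member profile than macrophages and monocytes of the same libraries. In all 5 infiltrating libraries Il4i1, Kynu and Ass1 were higher in dendritic cells than in macrophages, and in none of them were Arg1, Slc7a2, Nos2 or Acod1 higher. Against monocytes, Il4i1 and Kynu were higher in dendritic cells in 5 of 5 libraries and Ass1 in 4 of 5. Ass1 did not set the 2 classes far apart. It stood at 895, 732 and 226 CPM against 864, 545 and 223 CPM in chronic EAE, and at 809 and 366 CPM against 792 and 459 CPM at peak. Macrophages exceeded monocytes in 5 of 5 libraries for Arg1 and Acod1 and in 4 of 5 for Slc7a2 and Nos2. Monocytes exceeded macrophages in 5 of 5 libraries for Ass1. These are descriptions, since the classes were made from the same cells.

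Il4i1 stood at 294, 227 and 57.8 CPM in chronic dendritic cells, and at 96.3 and 24.2 CPM at peak. Its stages overlapped, with a log2 difference of 1.65 ± 0.67 (edgeR adjusted p = 0.598). Kynu stood at 48.6, 21.4 and 27.8 CPM in chronic EAE, and at 96.3 and 89.8 CPM at peak. Kynu did not overlap between the stages, and the difference of -1.30 ± 0.39 did not pass (adjusted p = 0.542). Ass1 stood at 895, 732 and 226 CPM in chronic EAE, and at 809 and 366 CPM at peak. edgeR called 0 of these 3 members and 0 of 4831 genes (0%), with 392 genes at an unadjusted p under 0.05 and 18 genes but no member called by DESeq2. Of the 3 members 1 had groups that did not overlap, against 25.7% of all genes. Arg1, Slc7a2, Nos2 and Acod1 did not pass the filter, with 2, 6, 0 and 1 UMIs in chronic dendritic cells, and 28, 3, 1 and 28 at peak.

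Dendritic Il4i1 was at higher CPM in the few cells with a UMI of Ccr7, the chemokine receptor of mature migratory dendritic cells, a split chosen after the values were seen. Chronic libraries held 11, 5 and 2 such cells, and peak libraries 14 and 1. Il4i1 was found in 11, 5 and 2 of them in chronic EAE, and in 9 and 1 at peak. Cells with Ccr7 held 97, 43 and 36 Il4i1 UMIs in chronic EAE, against 24, 10 and 41 in cells without it, and 75 and 4 at peak, against 6 and 3. In cells with Ccr7 it stood at 1635, 2513 and 2673 CPM in chronic EAE, and at 691 and 516 CPM at peak, against 68.2, 46.2 and 31.1 CPM, and 8.19 and 10.6 CPM, in dendritic cells of the same libraries without it. The cells with Ccr7 were shallower, with medians of 5266, 3475 and 6734 UMIs in chronic EAE and 7318.5 and 7750 UMIs at peak, against 6420, 6925 and 9789 UMIs, and 11385 and 11895.5 UMIs. Kynu in cells with Ccr7 rested on 2, 1 and 1 UMIs in chronic EAE and on 13 and 3 at peak. It stood at 33.7, 58.4 and 74.3 CPM in chronic cells with Ccr7 and 120 and 387 CPM in peak ones, against 51.1, 18.5 and 27.3 CPM, and 92.8 and 81.6 CPM, in cells without.

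**Figure D5:**
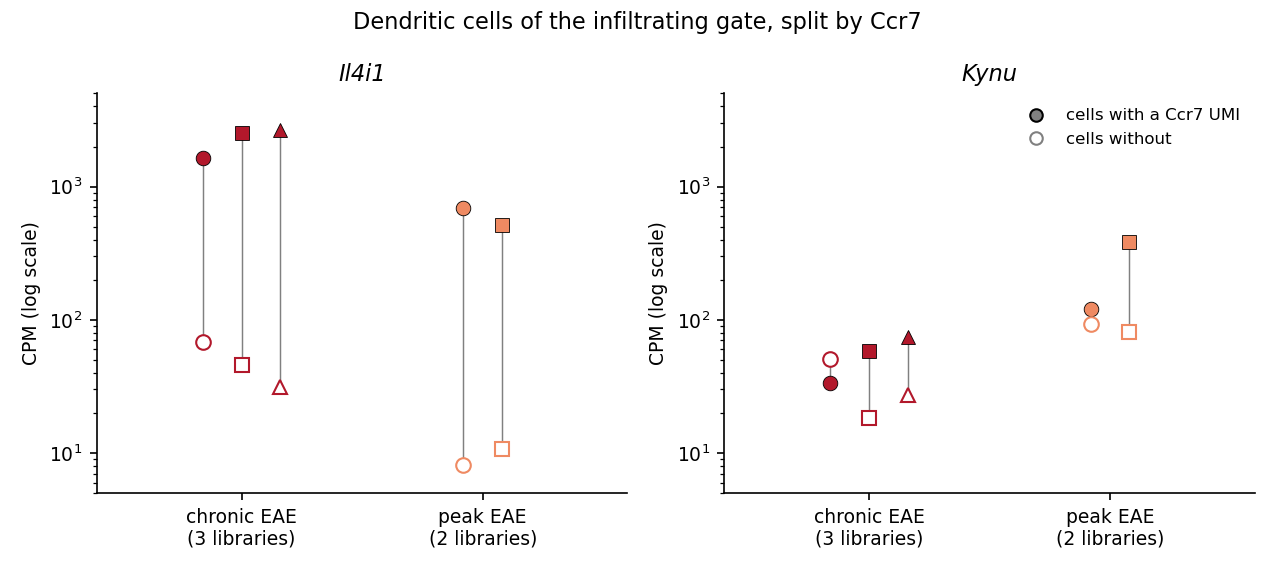
CPM (y axes, log scale) of Il4i1 (left) and Kynu (right) in dendritic cells with a Ccr7 UMI (filled) and without one (open), joined within each infiltrating library, chronic EAE left of peak EAE; marker shapes are libraries a, b and c of the group. Il4i1 is higher in the cells with Ccr7 in all 5 libraries, and Kynu in 4 of them, from 1 to 13 UMIs.

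Macrophages were also found in the resident gate. In chronic EAE they had Arg1 at 894, 117 and 0 CPM, against 1776, 98.0 and 9.69 CPM in the infiltrating gate of chronic libraries. Ass1 stood at 450, 239 and 96.9 CPM, against 654, 426 and 125 CPM, and Acod1 at 174, 111 and 13.3 CPM, against 282, 138 and 65.2 CPM. In each gate the library of pool B (c) was lowest for Arg1, Ass1 and Acod1, and libraries a and b, of pool D, were higher. edgeR called 0 of 7 members and 0 of 8703 genes (0%), with 419 genes at an unadjusted p under 0.05 and 37 genes but no member called by DESeq2. The gates overlapped for all 7 members, while 10.1% of all genes did not overlap. Cluster 6, to which 87.9% to 100% of infiltrating-gate macrophages belonged, made up 58.8%, 36.2% and 46.2% of these cells, and microglial markers summed to 2817 to 4275 CPM in them, against 589 to 1509 CPM in the chronic infiltrating gate. Within cluster 6 alone the resident-gate macrophages had Arg1 at 1253, 270 and 0 CPM.

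At peak the resident gate gave 30 and 20 macrophages, a comparison added after seeing the data. Slc7a2 stood at 0 and 21.3 CPM, against 74.5 and 194 CPM in the peak infiltrating gate, and passed the test (-3.98 ± 0.86 on the log2 scale, edgeR adjusted p = 0.0171). The call was lost without peak infiltrating library a (adjusted p = 0.0547), without peak infiltrating library b (0.0547) or without peak resident library a (0.186). Ass1 stood at 47.7 and 81.6 CPM, against 608 and 239 CPM (-3.07, adjusted p = 0.0503), and Arg1 at 0 and 106 CPM, against 1934 and 860 CPM (not called). In all 1 of 7 members was called, against 6.08% of 8703 genes (3.57% higher, 2.5% lower), and 6 of 7 did not overlap between the gates, against 51.5% of all genes. Scaling by library size alone moved the median of all genes from -0.05 to 0.29 and the split of calls from 311 higher and 218 lower to 447 and 125. Microglial markers summed to 5322 and 5608 CPM in these cells, against 597 and 500 CPM in the infiltrating gate. In microglia of the peak resident gate they summed to 6957 and 8131 CPM. Cluster 3 held 86.7% and 65.0% of the resident-gate macrophages. All 6 Slc7a2 UMIs and all 30 Arg1 UMIs came from the 3 cluster 6 cells of peak resident library b. Over the 5 cluster 6 cells of both libraries Slc7a2 stood at 76.2 CPM and Arg1 at 381 CPM. The part of these marker and cluster differences in the Slc7a2 result was not tested.

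Other genes of the same pathways are given for microglia beside the shares of all genes called there, 16.2% higher and 13.1% lower at peak and 14.7% higher and 13.3% lower in chronic EAE, each against controls, and 8.98% higher and 12.6% lower in chronic against peak EAE. Counts in lists this short are not read as departing from those shares. Of 11 tested genes of the arginase and polyamine branch, 4 were higher and 1 lower at peak than in controls, among them Odc1, the first enzyme of polyamine synthesis, at 41.5 against 21.1 CPM, Paox, a polyamine oxidase, at 42.0 against 15.9 CPM, and Sat1, a polyamine acetyltransferase, at 1214 against 752 CPM. Aldh18a1, of proline and ornithine synthesis, was the other higher gene (16.9 against 11.1 CPM). The lower gene was not among the 4 of smallest p and is not named. In chronic EAE 2 were higher and 0 lower than in controls, Paox at 37.0 against 15.9 CPM and Sat1 at 1508 against 752 CPM. Against peak Odc1 was lower in chronic EAE, at 21.1 against 41.5 CPM, 1 of 11.

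Of 6 tested genes of the nitric oxide branch and its cofactor, Ddah2 was lower at peak (7.60 against 80.1 CPM, -3.05 on the log2 scale, edgeR adjusted p = 9.67e-06) and in chronic EAE (13.6 against 80.1 CPM, -2.12). In chronic EAE Ddah2 was higher than at peak (13.6 against 7.60 CPM). Qdpr, which regenerates the cofactor tetrahydrobiopterin, was higher in chronic EAE (51.8 against 34.8 CPM). Of 5 tested genes of the arginine uptake list, Slc7a1, a cationic amino acid transporter, was higher at peak (22.2 against 13.4 CPM, with groups that overlapped) and lower in chronic EAE than at peak (7.12 against 22.2 CPM). Slc7a8, which carries neutral amino acids, was lower in chronic EAE than in controls (66.3 against 197 CPM) and than at peak (66.3 against 155 CPM).

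Of 7 tested genes of the tryptophan and kynurenine list, 2 were higher and 1 lower at peak than in controls, with Wars, the tryptophanyl-tRNA synthetase, at 53.7 against 17.9 CPM (1.96 on the log2 scale, edgeR adjusted p = 4.55e-05). Haao was higher (29.2 against 23.2 CPM, overlapping groups), and Qprt was lower, with 3 UMIs against 77. In chronic EAE Wars stood at 15.7 CPM and was lower than at peak (-1.70), and Qprt was lower than in controls (0.729 against 3.53 CPM). Of 8 tested genes around itaconate and cis-aconitate, Cs, citrate synthase, was higher at peak (57.7 against 45.4 CPM, overlapping groups) and lower in chronic EAE than at peak (31.4 against 57.7 CPM). Clybl, which acts on a breakdown product of itaconate, was higher in chronic EAE than in controls (7.69 against 3.88 CPM). Sugct was higher in chronic EAE than at peak, with 52 UMIs against 4. In macrophages, monocytes and dendritic cells of the infiltrating gate 0 genes of any of the 5 lists were called by edgeR between chronic and peak EAE, where 0.0115%, 0.101% and 0% of all genes were called, so that nothing about the lists is read from it.

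Across 30 sums of a class in a library, the genes most like each member in log2(CPM + 1) were found among 5436 candidates averaging at least 20 CPM. Arg1 was most like F10 (Pearson r = 0.91), Sod2 (0.91) and S100a8 (0.90), and Slc7a2 most like F13a1 (0.93), Mgst1 (0.92) and Cd93 (0.92). Nos2 had weaker partners, Ero1l (0.83), Sod2 (0.79) and Ccdc71l (0.79). Ass1 was most like Fxyd5 (0.96), Il4i1 most like Fscn1 (0.82), Kynu most like Cytip (0.91) and Acod1 most like Tnfaip2 (0.92). Between members r was highest for Arg1 and Slc7a2 (0.79) and lowest for Il4i1 and Acod1 (-0.60). These coefficients are descriptions: sums of the same library share its depth and free RNA. F10 stands in the monocyte marker list used above and Fscn1 in the list for mature migratory dendritic cells.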

How the data were processed

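UMI counts per gene and cell were deposited by the authors as 1 matrix with a table of cells that gives library, class and cluster; the processing notes of the submitters name Cell Ranger 3.1.0, R 4.1.3 and GRCm38 (mm10). The deposited cell table also gives the log10 of the total UMIs of each cell and the percent of its UMIs in mitochondrial genes, both as the authors computed them, and used here only to describe depth and quality. The deposited counts were taken as they are, with no cell filtered further and 0 cells marked as doublets in the deposited table. Counts were summed per library and deposited class, for classes with at least 20 cells, and each class was fitted with edgeR 4.0.16 (R 4.3.3, limma 3.58.1; quasi-likelihood F test, trimmed mean scaling, filterByExpr, Benjamini-Hochberg threshold of 0.05). The fits held 11154 genes and 10 libraries for microglia, 8703 and 10 for macrophages, 7920 and 5 for monocytes, and 4831 and 5 for dendritic cells, over 4, 4, 2 and 2 groups.

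CPM is a member's count over the summed UMIs of its class in a library. Counting intervals are exact at 95% and cover counting error only, as does the floor of 3 UMIs used for a count of 0. Shares were set at 2000 UMIs per cell, as the expected share after thinning, leaving out shallower cells. DESeq2 1.42.0, other scalings, filters, cell minimums, the sequencing pool as a term and leaving out each library were alternatives. The fits were tested on simulated data. Library letters a, b and c are names only and pair nothing. Pathway genes are named where the test called them, and likeness is the 3 highest Pearson r. The members and lists were chosen with earlier results of these data known. Cells outside the classes named here were used only as a comparison.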

Additional observations from a re-analysis of the deposited data

Results flagged for a closer look

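A pair of members was singled out because the change against controls in microglia of the resident gate differed between chronic and peak EAE by edgeR's test of that difference. For Il4i1 the chronic change exceeded the peak change by 3.85 on the log2 scale (3 against 2 libraries, adjusted p = 3.31e-05), with every chronic library above and every peak library below the controls. For Ass1 it did so by 1.33 (adjusted p = 0.0244), with both stages above the controls, and that call was lost without either peak resident library or without chronic resident library a or b.

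Signal was also seen in small annotated classes that enter no comparison. The 20 annotated CAMs of EAE libraries held 72 Arg1 UMIs in 3 cells (426 CPM), 4 Slc7a2 UMIs in 3 cells and 9 Ass1 UMIs in 3 cells, against 0 UMIs of each in the 18 of controls. The 14 annotated neutrophils of EAE libraries held 44 Ass1 UMIs in 2 cells (290 CPM) and 15 Acod1 UMIs in 3 cells (98.9 CPM). Controls had no annotated neutrophil, so these values stand above the limit of a count of 0 and not above a control. No group held the 4 libraries that a check for a single outlying library needs.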

How the results depend on the processing

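No fold change printed for a member changed sign in 285 alternative values, of which 245 kept their side of the threshold, 26 gained a call and 14 lost one. The 2 members called in microglia between chronic and peak EAE became 4 with no filter on low counts, 4 with at least 10 cells per sum, 1 with the pool as a term and 1 to 3 when each library was left out. The 0 called in monocytes became 1 by DESeq2, 3 with no filter and 0 to 3 with a library left out. The 0 in macrophages became 1 with no filter and 0 to 1 with a library left out, and the 0 in dendritic cells became 3 with no filter. For the peak gates in macrophages, 1 became 2 by DESeq2, 6 with no filter, 2 with at least 10 cells, 2 with the pool term and 0 to 1 with a library left out. The cause was not tested. Where a library left out leaves 1 in its group, that library is assumed to vary like the other groups. The pool term could not be fitted for chronic against peak infiltrating cells.

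The Nos2 share difference of -8.25 points in macrophages was -5.07 thinned to 1000 UMIs, -21.6 not thinned and -12.0 with at least 2 UMIs. In monocytes -4.75 was -2.70, -13.7 and -7.61 in the same order. The pooled co-detection ratio in peak macrophages of 1.09 was 1.06 within quartiles of total UMIs, 1.02 thinned and 1.14 with at least 2 UMIs of each, and ranged from 1.09 to 1.11 with a library left out. In peak monocytes it was 1.18, and 1.14 to 1.44 with a library left out. In libraries a and b it was 1.13 and 1.36 within quartiles and 1.24 and 1.12 thinned. With at least 2 UMIs of each it was 1.33 and 0.918, from 45 and 7 monocytes with both. Cluster restrictions and the peak gate comparison were chosen after seeing the data. No paired analysis was possible because the library names in the deposited table carry no replicate number. With 2 or 3 libraries a group and 1 to 3 UMIs for several members, small differences were not detectable.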
